A study of Mus musculus with 12 samples.

Results

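Chromatin marks were read at 37 genes of glucose transport, glycolysis, lactate handling and pyruvate dehydrogenase control in cultured mouse mesenchymal stem cells (MSCs), out of 21827 protein-coding genes of the GENCODE M21 annotation (mm10). The genes were listed by their role in the pathway. They covered glucose transporters (Slc2a1, Slc2a3, Slc2a4), the 10 enzymatic steps from hexokinase to pyruvate kinase with their isoforms, the PFKFB enzymes, lactate dehydrogenases, lactate carriers, the pyruvate dehydrogenase kinases and 2 pyruvate dehydrogenase subunits. Chromatin immunoprecipitation sequencing (ChIP-seq), which recovers the DNA wrapped around a modified histone, had been carried out for histone H3 acetylated at lysine 27 (H3K27ac) and trimethylated at lysine 4 (H3K4me3). H3K27ac is found at active promoters and enhancers, and H3K4me3 mainly at promoters. The cells were labelled as bone-marrow MSCs from animals of 3 to 5 months, and were endosteal cells of male C57BL/6N mice. They were cultured in the same medium at 2% oxygen (hypoxia) or 21% oxygen (normoxia), with a sort by surface markers on day 12. The labels place the oxygen levels before the sort, whereas the study's methods describe outgrowth of all cells in hypoxia, then the sort, and only after it a week of culture at either oxygen level. The 12 libraries formed 6 groups of 2, namely each mark and an input control at each oxygen level, but the values available are 4 peak lists, 1 for each mark at each oxygen level, in which the libraries of a group are pooled. No value per library and no read depth could therefore be given. A difference between the oxygen lists has no replicate check, and no test of oxygen was made. A peak in a bulk culture also does not show in how many of its cells the mark lay.

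Glycolysis splits glucose into pyruvate and yields ATP without oxygen. Lactate dehydrogenase regenerates NAD+ by turning pyruvate into lactate, which leaves the cell through monocarboxylate carriers, whereas pyruvate dehydrogenase sends pyruvate into the mitochondrial citric acid cycle and is switched off by its kinases. Most steps are served by several isoforms that differ between tissues. Many of these genes are textbook targets of the hypoxia-inducible factors (HIFs), which bind DNA at the core ACGTG or GCGTG when oxygen is low. A comparison of isoforms therefore shows which gene of each step carried marks of an active promoter in MSCs, and a comparison of the oxygen lists shows where H3K27ac was called in one condition alone.

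The 4 lists held 15203 H3K27ac peaks in hypoxia, 14832 in normoxia, and 14606 and 14603 H3K4me3 peaks. Peak borders lay on a common grid of 500 bp, and of 22555 segments in the 4 lists together 0 overlapped another in part. Segment borders were thus common to the 4 lists, and a region was either the same in both oxygen lists or absent from one. The score deposited with each peak took values of 50 to 160 or was exactly 1000, and its definition was not given in the sources used here. All 14600 H3K4me3 peaks shared by the oxygen lists had equal scores in both, so these scores carry no information on oxygen. The share of peaks at 1000 ran from 0% to 86.9% between chromosomes, so scores were set side by side mainly for the same peak. Where scores of different chromosomes were set together or ranked, this was not adjusted for. Of 8 MSC marker genes, 7 carried both marks at a start and Ly6a, which encodes Sca-1, H3K27ac alone. Of 6 white blood cell markers, 5 carried neither mark and Csf1r H3K27ac alone. The endothelial marker Kdr carried H3K4me3 alone, while the other 3 endothelial and 4 of 4 muscle markers carried neither mark.

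At most of the 37 genes the promoter carried both marks. Peaks of either oxygen list were counted. An H3K4me3 peak lay within 1000 bp of an annotated coding start in 31 genes (83.8%), against 58.9% of all coding genes. An H3K27ac peak lay there in 25 genes (67.6%), against 37.6%. Of these genes, Pfkp and Slc16a3 had it in the hypoxia list alone. Both marks were found at 24 genes (64.9%, against 36.5% of all), H3K4me3 alone at 7 (18.9%, against 22.4%), H3K27ac alone at 1 (2.70%, against 1.15%) and neither at 5 (13.5%, against 39.9%). The list joins enzymes used by most cells with isoforms restricted to some tissues, and no reason for its shares was tested. A list of 53 other glucose genes is set beside all coding genes below. Each of the 10 enzymatic steps had a gene with H3K4me3 at its start, and all but phosphoglucose isomerase (Gpi1) also had one with both marks. Within the gene body and 5000 bp on each side, 33 genes held an H3K4me3 peak (89.2%, against 63.7%) and 28 an H3K27ac peak (75.7%, against 46.1%).

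**Figure D1:**
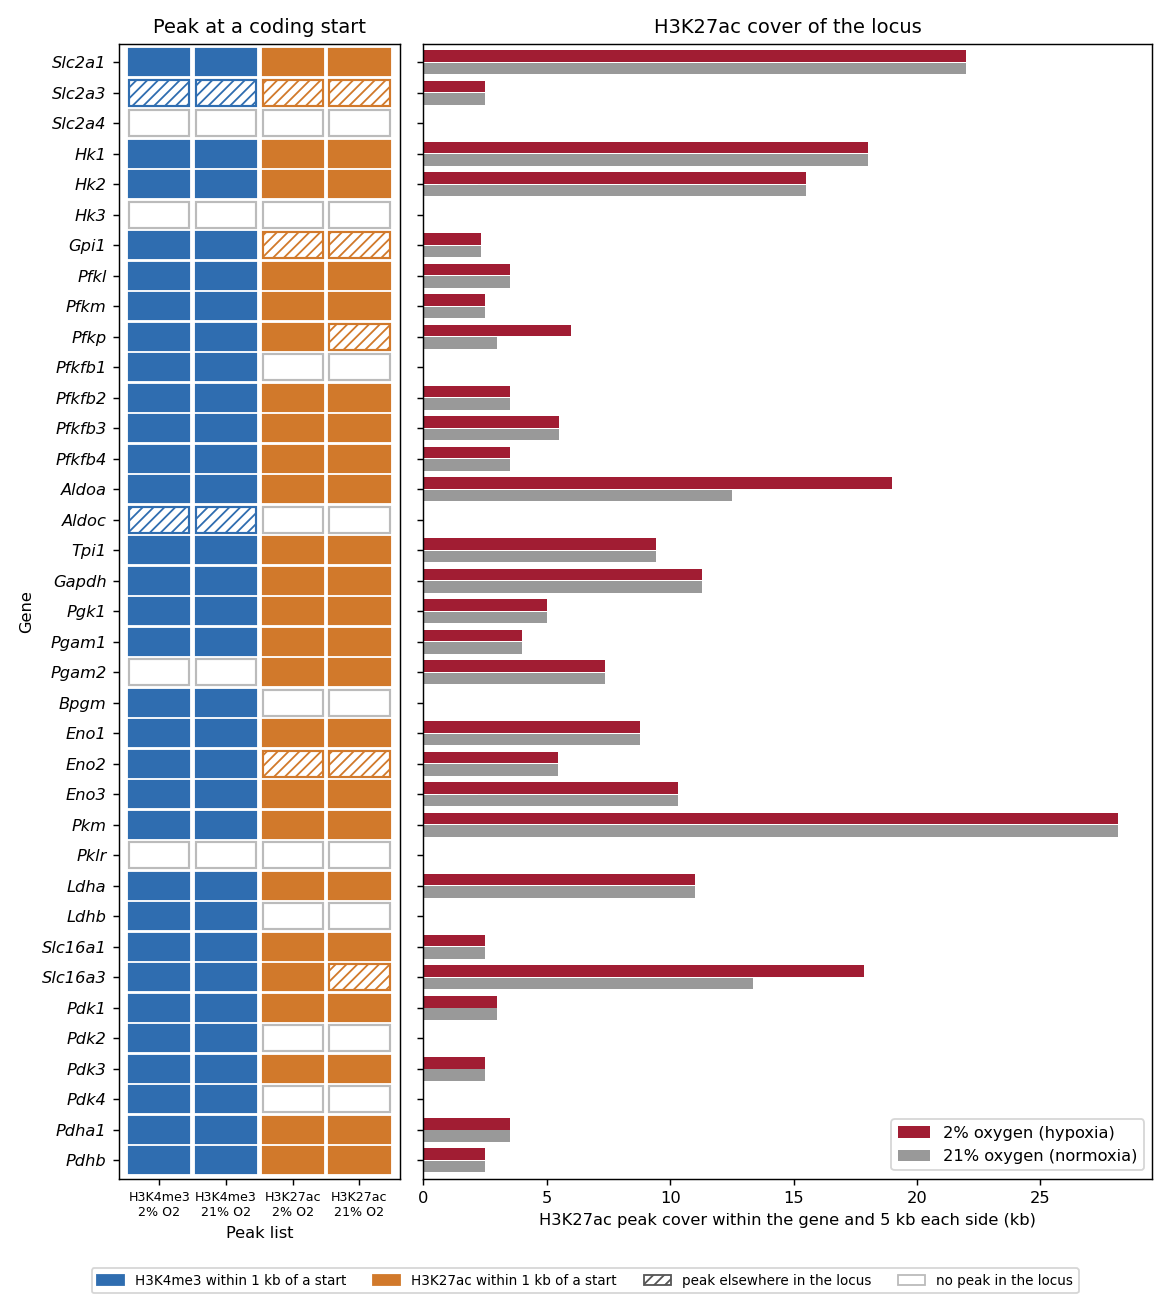
Peaks at the 37 genes. Left, each row is a gene and each column a peak list, and a filled box marks a peak within 1 kb of a coding start. Right, bars give the length of H3K27ac peaks within the gene and 5 kb on each side in kb, by oxygen level, with 1 list per bar and no error. Slc16a3, Pfkp and Aldoa have longer cover at 2% than at 21% oxygen, and the bars of the other genes are equal.

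Among the glucose transporters, marks at the start were found at Slc2a1 alone. Slc2a1 encodes GLUT1, the carrier of basal glucose uptake in most cells. Its start lay in an H3K4me3 and H3K27ac segment of 6000 bp (chr4:119105501-119111500). H3K27ac went on without a break to chr4:119127500, a region of 22000 bp at both oxygen levels that covered 64.2% of the gene. Slc2a4, the insulin-responsive GLUT4 of muscle and fat (chr11:69942539-69948188), had no peak in any list. Slc2a3, the high-affinity GLUT3 (chr6:122727809-122801640), had neither mark at its single start in the basic annotation. Its locus held 2 H3K4me3 peaks and an H3K27ac peak (chr6:122794501-122797000, score 61 in both). The farther H3K4me3 peak (chr6:122800501-122803000, score 131) lay over the upstream end of the gene, where the comprehensive annotation places another coding start.

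Hexokinase, which traps glucose by phosphorylation, showed the contrast between isoforms over several alternative starts. Hk1 and Hk2 carried both marks, and Hk3, a form of white blood cells (chr13:55005985-55021385), had no peak in any list. At Hk1, 1 of 4 coding starts lay inside a peak, in a segment with H3K4me3 and H3K27ac (chr10:62338001-62342000, 4000 bp). Another lay within 1000 bp of that segment, and the most upstream start had no peak within that distance. Both promoters are shown for that contrast, from RefSeq (GRCm38.p6), 250 bases before to 50 bases after the start, 5′ to 3′ on the strand of the gene. Capitals mark ACGTG or GCGTG on either strand, and the marked promoter precedes the unmarked one.
Hk1 chr10:62340372-62340671 minus strand: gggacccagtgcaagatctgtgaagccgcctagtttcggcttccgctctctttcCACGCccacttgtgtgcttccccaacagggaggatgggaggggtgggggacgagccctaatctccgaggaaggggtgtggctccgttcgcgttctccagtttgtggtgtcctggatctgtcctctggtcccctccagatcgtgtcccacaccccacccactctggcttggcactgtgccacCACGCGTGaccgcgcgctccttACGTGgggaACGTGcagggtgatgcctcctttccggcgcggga
Hk1 chr10:62379859-62380158 minus strand: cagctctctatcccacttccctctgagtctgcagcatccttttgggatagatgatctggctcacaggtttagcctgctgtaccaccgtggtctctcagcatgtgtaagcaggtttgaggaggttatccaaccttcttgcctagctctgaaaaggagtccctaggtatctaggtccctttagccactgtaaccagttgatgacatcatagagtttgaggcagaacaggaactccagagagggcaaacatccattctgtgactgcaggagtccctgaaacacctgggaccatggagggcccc
The marked promoter held 4 such stretches and the unmarked one 0. Inside its body Hk1 had 2 further H3K27ac peaks of 6000 bp without H3K4me3 (chr10:62298501-62304500, scores 108 in hypoxia and 114 in normoxia, and chr10:62317001-62323000, scores 89 and 87). Hk2, the inducible hexokinase, had a start peak of 3500 bp with both marks (chr6:82772001-82775500) and an H3K27ac peak of 8500 bp in its body (chr6:82750001-82758500, scores 71 and 70). Another of 3500 bp lay across its downstream end (chr6:82722501-82726000, score 52 in both). These gene-body peaks of Hk1 and Hk2, with 1 each in Slc2a3 and Pfkp, were the 6 H3K27ac segments among 51 that neither held nor touched H3K4me3.

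Gpi1, which interconverts glucose and fructose phosphates, had H3K4me3 alone at its start (chr7:34228001-34231000, 3000 bp). The H3K27ac nearest to it lay 2665 bp upstream with a second H3K4me3 peak (chr7:34233001-34235500), over the starts of the noncoding genes Gm12758 and Gm12762.

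All 3 phosphofructokinase genes, which catalyse the committed step, carried both marks, and Pfkp differed between the oxygen lists. Pfkl, the liver type, had 1 segment of 3500 bp with both marks (chr10:78007501-78011000, H3K27ac scores 130 in hypoxia and 127 in normoxia). Pfkm, the muscle type, had all 3 coding starts inside H3K4me3, in 2 segments. The upstream segment of 2500 bp held 2 of them with both marks, together with the Senp1 start (chr15:98092001-98094500, H3K27ac score 142 in both), and the downstream one carried H3K4me3 alone (chr15:98107501-98110000). At Pfkp, the platelet type, the start segment (chr13:6646501-6649500, 3000 bp) had H3K4me3 with score 127 in both lists and H3K27ac with score 68 in hypoxia alone. The nearest H3K27ac peak of the normoxia list was 14500 bp away, outside the locus. The single H3K27ac peak of the locus in normoxia lay in the gene body (chr13:6613001-6616000) and scored 53 at both oxygen levels. The promoter of Pfkp is printed as one of those under a hypoxia-only peak.
Pfkp chr13:6648722-6649021 minus strand: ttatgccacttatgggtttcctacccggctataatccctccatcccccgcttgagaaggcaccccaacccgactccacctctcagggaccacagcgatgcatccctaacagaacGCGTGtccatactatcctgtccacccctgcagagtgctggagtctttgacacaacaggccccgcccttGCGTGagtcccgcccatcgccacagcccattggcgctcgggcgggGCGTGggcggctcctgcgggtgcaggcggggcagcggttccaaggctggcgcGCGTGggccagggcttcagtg
It held 4 separate GCGTG stretches in 300 bases.

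The PFKFB enzymes make and remove fructose 2,6-bisphosphate, the activator of phosphofructokinase. Pfkfb2, Pfkfb3 and Pfkfb4 carried both marks and none had a peak confined to one oxygen level. Pfkfb3, whose enzyme strongly favours synthesis, had the widest start peak of the family, 5500 bp (chr2:11499001-11504500), over its downstream starts. The H3K27ac score of this peak was 1000 in hypoxia and 105 in normoxia. Its most upstream start carried H3K4me3 alone (chr2:11552501-11555000). Pfkfb2 had H3K27ac over 3500 bp (chr1:130715001-130718500, scores 115 and 114) in a segment that also held the starts of Yod1 and Gm29427. Pfkfb4 had the narrowest H3K4me3 region of the family, 2000 bp (chr9:108991001-108993000), and H3K27ac scored 70 in both lists. The H3K4me3 counted for Pfkfb1, the liver and muscle form, was a peak over the Apex2 start (chrX:150586501-150589000). It lay 921 bp from the nearest Pfkfb1 coding start of the basic annotation. RefSeq places Pfkfb1 starts inside the peak as well (chrX:150587445 and chrX:150588243), so it cannot be assigned to 1 of the 2 genes. Pfkfb1 had no H3K27ac.

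Of the aldolases, which split fructose 1,6-bisphosphate, Aldoa was marked and Aldoc was not. The only peak read for Aldoc, the brain form (chr11:78322968-78327781), was H3K4me3 over the start of its neighbour Pigs (chr11:78327501-78330000), 3301 bp from an Aldoc start. Aldoa lay in an H3K27ac region that covered 100% of the gene in hypoxia, 19000 bp without a break (chr7:126791001-126810000). In normoxia the same region was called as 2 pieces, of 10000 bp (chr7:126791001-126801000) and 2500 bp (chr7:126807501-126810000). Between them lay the hypoxia-only segment chr7:126801001-126807500, 6500 bp with score 78 and no H3K4me3. It touched shared H3K27ac on both sides and was 554 bp from an Aldoa start. The start of the noncoding gene Gm44856 lay inside it, and it lay partly over the neighbour Fam57b. The 4 coding starts of Aldoa themselves lay in the shared pieces. The segment over the downstream starts scored 1000 in both lists and carried H3K4me3, and the one over the upstream start scored 56 in hypoxia and 55 in normoxia. The promoter printed here is of a start in the shared downstream piece, for contrast with Pfkp and Slc16a3.
Aldoa chr7:126799205-126799504 minus strand: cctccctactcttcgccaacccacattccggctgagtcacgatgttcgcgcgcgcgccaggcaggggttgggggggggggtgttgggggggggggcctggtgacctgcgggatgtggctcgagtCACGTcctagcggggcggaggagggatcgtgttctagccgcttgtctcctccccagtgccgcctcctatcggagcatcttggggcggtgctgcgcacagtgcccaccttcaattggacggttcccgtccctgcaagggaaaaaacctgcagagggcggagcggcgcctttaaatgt
It held 1 stretch, a CACGT, which is ACGTG on the other strand.

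The 3 lower steps with a single gene here, Tpi1 (triose phosphate isomerase), Gapdh and Pgk1 (the steps that make NADH and ATP), carried both marks at both oxygen levels. Tpi1 lay in the widest H3K4me3 region at a start of the 37 genes, 10500 bp (chr6:124804501-124815000), at percentile 99.5 of the widths of all coding genes with H3K4me3 at a start (ties at their mid-rank). That region also held the start of Spsb2, and its H3K27ac score was 134 in both lists. Gapdh had a start segment of 5000 bp (chr6:125163001-125168000, H3K27ac scores 134 in hypoxia and 130 in normoxia) and H3K27ac over a further 7000 bp at its downstream end (chr6:125156001-125163000, scores 93 and 103). Pgk1, at the narrow end of the 3, had H3K4me3 over 4000 bp (chrX:106186501-106190500, H3K27ac scores 96 and 94).

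Phosphoglycerate mutase separated its isoforms by mark as well as by presence. Pgam1, the form of most tissues, had both marks over the same 4000 bp (chr19:41911001-41915000, H3K27ac score 142 in both). Pgam2, the muscle form, was the single member with H3K27ac and no H3K4me3 within 1000 bp of its start. That acetylated segment of 13500 bp (chr11:5790501-5804000, scores 110 in hypoxia and 111 in normoxia) covered 100% of Pgam2 and overlapped the neighbour Dbnl, and with adjoining segments the region was 17000 bp. The 4 muscle markers read for comparison (Myod1, Myog, Ckm and Acta1) had neither mark at a start. Bpgm, which makes the haemoglobin regulator 2,3-bisphosphoglycerate, had H3K4me3 alone over 2500 bp (chr6:34475001-34477500, score 124). The promoters of Pgam1 and Pgam2 are shown because marks and base composition differed together.
Pgam1 chr19:41911621-41911920 plus strand: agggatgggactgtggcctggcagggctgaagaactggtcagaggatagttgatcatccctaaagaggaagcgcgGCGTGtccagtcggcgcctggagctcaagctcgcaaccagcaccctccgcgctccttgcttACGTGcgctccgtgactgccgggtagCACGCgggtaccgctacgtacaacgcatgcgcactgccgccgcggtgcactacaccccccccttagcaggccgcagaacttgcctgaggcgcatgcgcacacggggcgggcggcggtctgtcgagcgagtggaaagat
Pgam2 chr11:5803747-5804046 minus strand: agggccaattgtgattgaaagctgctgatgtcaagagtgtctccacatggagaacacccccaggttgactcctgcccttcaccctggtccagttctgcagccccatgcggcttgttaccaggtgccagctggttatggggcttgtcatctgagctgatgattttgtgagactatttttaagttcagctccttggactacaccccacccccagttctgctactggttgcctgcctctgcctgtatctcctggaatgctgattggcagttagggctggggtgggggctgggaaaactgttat
The Pgam1 promoter held 3 stretches and the Pgam2 promoter 0. The ratio of observed to expected CpG dinucleotides was 0.948 in Pgam1 and 0.0469 in Pgam2.

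Among the enolases, which make phosphoenolpyruvate, Eno1 carried both marks over its start, while the neuronal form Eno2 and the muscle form Eno3 were marked in part by their neighbours. Eno1 had a start segment of 5000 bp (chr4:150235501-150240500, H3K27ac score 1000 in both) and a 10000 bp H3K27ac segment directly upstream (chr4:150225501-150235500), which scored 134 in hypoxia and 96 in normoxia. Eno2 had H3K4me3 alone at its start (chr6:124768001-124770500, 2500 bp). The H3K27ac of its locus lay 9020 bp or more from that start, in the region of the Atn1 start. The H3K4me3 counted for Eno3 belonged to a 6000 bp peak over the Pfn1 start, 202 bp from an Eno3 start (chr11:70651001-70657000). An Eno3 start itself lay in a low-scoring H3K27ac segment next to it (chr11:70657001-70661000, 4000 bp, score 54 in both) without H3K4me3.

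Of the pyruvate kinases, Pkm was marked throughout and Pklr not at all. Pkm, whose transcripts give the M1 and M2 enzymes, had an H3K27ac region of 29000 bp at both oxygen levels (chr9:59650501-59679500), which covered 100% of the gene. Its start held H3K4me3 over 7000 bp (chr9:59655001-59662000, percentile 97.9 of start widths) with H3K27ac scored 1000 in both lists. The flanking H3K27ac segments scored 68 in hypoxia and 81 in normoxia upstream, and 75 and 76 over the gene body. Pklr, the liver and red cell form, had no peak in any list.

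Lactate dehydrogenase divided in the same way by H3K27ac. Ldha, the A subunit, which predominates in muscle, had H3K27ac over 11000 bp (chr7:46837001-46848000) at score 1000 in both segments and both lists. H3K4me3 covered the 3500 bp around its starts (chr7:46844501-46848000, score 1000). Ldhb, the B subunit of heart, had H3K4me3 over 2500 bp (chr6:142506501-142509000, score 142) and no H3K27ac in its locus at either oxygen level.
Ldha chr7:46845554-46845853 plus strand: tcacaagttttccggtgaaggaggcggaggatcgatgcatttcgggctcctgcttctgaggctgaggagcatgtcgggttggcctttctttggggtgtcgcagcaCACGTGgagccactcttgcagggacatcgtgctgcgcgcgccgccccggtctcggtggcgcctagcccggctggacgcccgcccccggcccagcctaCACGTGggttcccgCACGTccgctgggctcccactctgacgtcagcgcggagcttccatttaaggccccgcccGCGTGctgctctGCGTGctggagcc
Ldhb chr6:142507908-142508207 minus strand: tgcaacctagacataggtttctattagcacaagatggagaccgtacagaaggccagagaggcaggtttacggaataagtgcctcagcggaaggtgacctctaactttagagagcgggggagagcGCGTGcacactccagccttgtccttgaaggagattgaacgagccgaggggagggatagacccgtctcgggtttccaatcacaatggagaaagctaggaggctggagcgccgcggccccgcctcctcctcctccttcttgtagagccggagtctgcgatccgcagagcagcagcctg
These promoters are shown as the isoform pair that both carried H3K4me3 and differed in H3K27ac: Ldha held 5 stretches, 2 of them the palindrome CACGTG, and Ldhb 1.

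**Figure D2:**
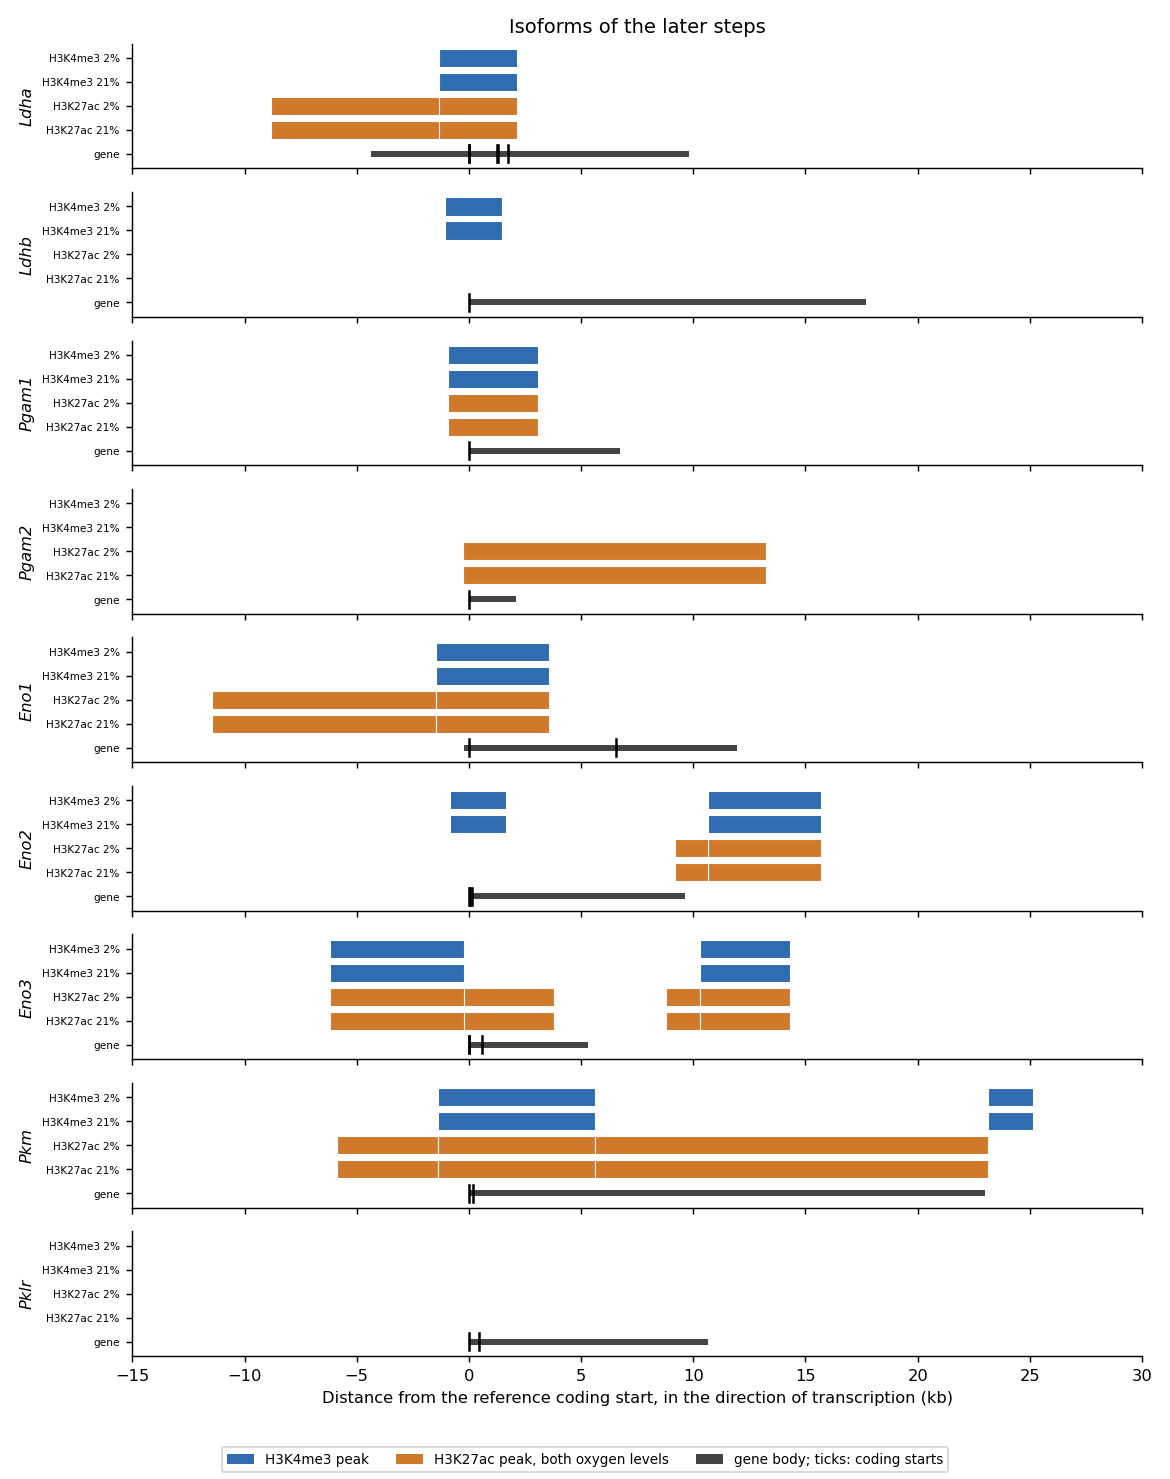
Peak maps of 9 genes of the later steps. The horizontal axis is distance in kb from a reference coding start in the direction of transcription, rows are the 4 peak lists (2% and 21% oxygen) and the gene body, and ticks are coding starts. Every peak in these 9 loci is drawn at both oxygen levels, Ldhb has H3K4me3 without H3K27ac, Pgam2 H3K27ac without H3K4me3, and Pklr no peak.

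The lactate carriers Slc16a1 (MCT1) and Slc16a3 (MCT4, the export form of glycolytic cells) both carried H3K4me3 at their starts in both lists. At Slc16a3, H3K27ac over the start was called in hypoxia alone. This segment (chr11:120948001-120952500, 4500 bp) scored 109 for H3K27ac in hypoxia and 1000 for H3K4me3 in both lists, and it held all 3 coding starts. It touched a shared H3K27ac segment of 36500 bp (chr11:120952501-120989000, scores 75 in hypoxia and 70 in normoxia) that ran on over the neighbour Csnk1d. The unbroken H3K27ac region was thus 44500 bp in hypoxia, covering 100% of Slc16a3, and 40000 bp in normoxia, covering 67.5% of the gene and ending 3420 bp from the nearest start.
Slc16a3 chr11:120948817-120949116 plus strand: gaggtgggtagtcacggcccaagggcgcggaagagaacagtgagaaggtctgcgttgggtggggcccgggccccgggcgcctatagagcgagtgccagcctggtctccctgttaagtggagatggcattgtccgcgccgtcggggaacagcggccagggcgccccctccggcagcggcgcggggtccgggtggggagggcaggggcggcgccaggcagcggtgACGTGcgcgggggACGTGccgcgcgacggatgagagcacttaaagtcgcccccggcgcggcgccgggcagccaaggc
The promoter, under the hypoxia-only segment, held 2 ACGTG stretches. Slc16a1 had H3K27ac over 2500 bp at its start (chr3:104637001-104639500), scored 1000 in hypoxia and 115 in normoxia.

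The pyruvate dehydrogenase kinases, which switch the complex off, split into 2 pairs. Pdk1 and Pdk3 carried both marks, and Pdk2 and Pdk4 H3K4me3 alone. Pdk1 had both marks over 3000 bp (chr2:71872001-71875000, H3K27ac score 103 in both lists). Pdk3 had both over 2500 bp (chrX:93830501-93833000, scores 123 in hypoxia and 121 in normoxia). Pdk2 had H3K4me3 over 3000 bp (chr11:95039501-95042500) and Pdk4, induced by fasting in other tissues, over 2000 bp (chr6:5495501-5497500). The E1 subunit genes Pdha1 (chrX:160136001-160139500, H3K27ac score 134 in both) and Pdhb (chr14:8172001-8174500, scores 104 and 103) carried both marks at both oxygen levels.

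Across the 37 loci, oxygen-specific calls were few and all in the hypoxia direction. Hypoxia-only H3K27ac was found at 3 genes, Slc16a3, Pfkp and Aldoa (8.11%), against 2.98% of all coding genes. At a start, counting Aldoa at 554 bp, the same 3 genes stood against 1.09%. Normoxia-only H3K27ac was found at 0 of the 37, against 0.816% of coding genes (0.188% at a start), and in either direction the background was 3.77%. Since a gene needs H3K27ac to differ, the share was also read over genes with H3K27ac in the locus: 10.7% of the members there had a hypoxia-only peak, against 6.45%, with 1.77% for normoxia-only. Among genes with H3K4me3 at a start the values were 9.68% against 4.61%, with 1.26% for normoxia-only. A count of 3 without replicates describes these 3 loci and not the pathway. H3K4me3 was condition-specific at 0 of 37 genes, against 0.0229%. H3K27ac covered 236439 bp of the loci in hypoxia in 51 peaks and 222439 bp in normoxia in 48, and H3K4me3 149682 bp in 50 peaks in both.

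**Figure D3:**
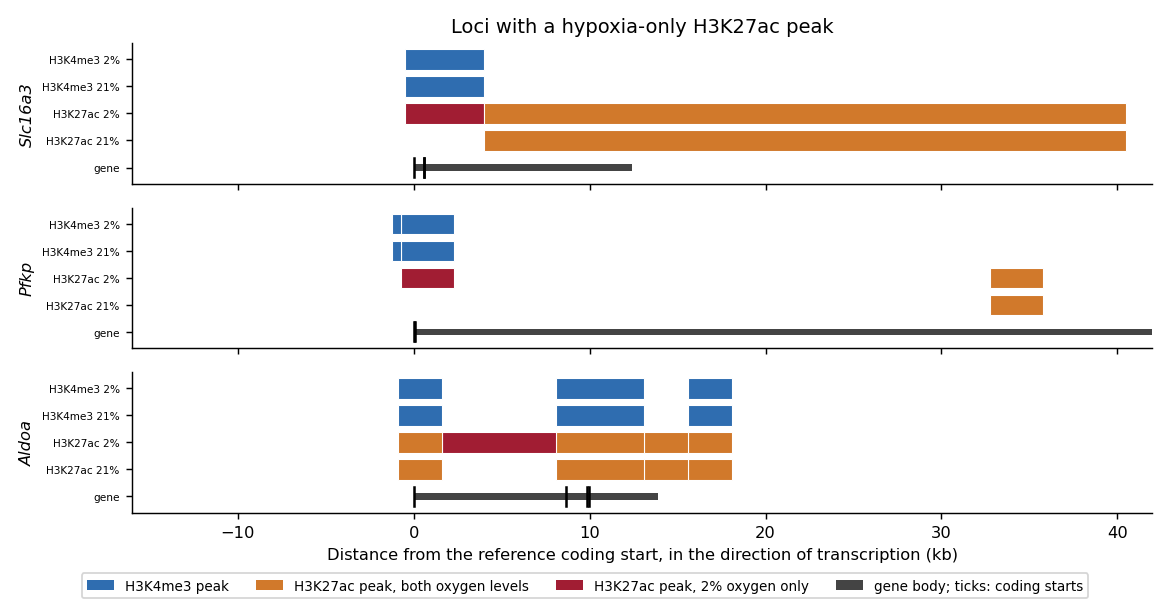
Peak maps of Slc16a3, Pfkp and Aldoa, with distance in kb from a reference coding start in the direction of transcription, the 4 peak lists as rows, and dark red for H3K27ac called at 2% oxygen alone. Segments wholly outside the gene and 5 kb on each side are not drawn. The dark red segment covers the starts of Slc16a3 and Pfkp, and at Aldoa it fills the gap between 2 segments called at both oxygen levels.

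The 3 hypoxia-only segments differed in their surroundings. Those of Slc16a3 and Aldoa touched H3K27ac of the normoxia list, as did 229 of the 589 hypoxia-only peaks of the genome (38.9%), and that of Pfkp stood apart. Those of Slc16a3 and Pfkp lay on H3K4me3, as did 176 of the 589 (29.9%), and that of Aldoa did not. Their scores of 109, 68 and 78 for Slc16a3, Pfkp and Aldoa stood beside a median of 58 over the 589, and their widths of 4500, 3000 and 6500 bp beside a median of 3500 bp. The scores are of different chromosomes and do not rank the segments by strength.

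Where H3K27ac was called at both oxygen levels, its score was most often equal in them. Of 48 such peaks in the loci, 16 scored higher in hypoxia (33.3%, against 39.9% of all 14614 shared peaks), 8 lower (16.7%, against 16.6%) and 24 the same (50%, against 43.6%). Leaving out scores of 1000, the median difference was 0 over 37 peaks, with a range of -13 to 38, and 0 over 11015 peaks of the genome. The ends of that range were the upstream segments of Pkm and Eno1 described above. A score of 1000 in hypoxia and below 1000 in normoxia was found at the start peaks of Slc2a1 (1000 and 129), Pfkfb3 and Slc16a1, 3 of 48 (6.25%), which is near the 5.45% of all shared peaks. The reverse was found at 0, against 1.55%. These genome-wide shares pool chromosomes that differ in how many peaks score 1000.

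**Figure D4:**
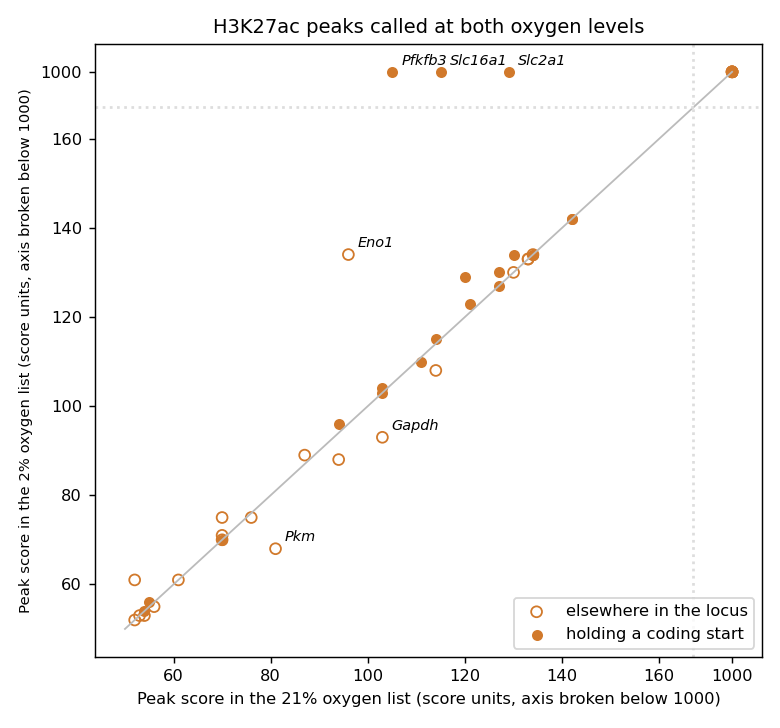
Deposited scores of the 48 H3K27ac peaks shared by both oxygen lists, with the 21% oxygen list on the horizontal and the 2% oxygen list on the vertical axis, in score units. Scores of 1000 are drawn beyond the dotted lines on a broken axis. Filled points hold a coding start, and most points lie on or near the line of equality, with Pfkfb3, Slc16a1 and Slc2a1 at 1000 in the 2% list alone.

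The median width of H3K4me3 regions at the starts was 3500 bp over 31 genes (range 2000 to 10500 bp), and 3000 bp over 12860 genes. After Tpi1 came Pkm with 7000 bp and Slc2a1 and Eno3 with 6000 bp each (that of Eno3 being the peak over the Pfn1 start), and Pdk4 and Pfkfb4 were narrowest with 2000 bp. The H3K27ac region at a start had a median of 5000 bp over 25 genes, against 3500 bp over 8217. In this measure Slc16a3 in hypoxia (44500 bp), Pkm (29000 bp) and Slc2a1 (22000 bp) were the widest of the 37 genes, and several regions ran over neighbouring genes. Of the 51 H3K27ac segments, 29 carried H3K4me3 and 16 others touched an H3K4me3 segment.

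Promoter sequence differed between promoters with and without marks, as it did genome-wide. RefSeq promoters of 300 bases were matched for 35 of the 37 genes (not Slc2a3 and Slc2a4), 55 promoters in all. Each was classed by the peaks over its start base, without the 1000 bp window, so promoters of 1 gene can differ in class. The 9 under neither mark came from 6 genes, among them Hk1, Pfkm and Pfkfb1, which also had marked promoters. Promoters of 1 gene were counted separately, some overlap, as at Eno1 and Aldoa, and no share per gene was computed. The median CpG ratio was 0.714 for 31 promoters under both marks, 0.631 for 13 under H3K4me3 alone, 0.0877 for the 2 under H3K27ac alone (Pgam2 and Eno3) and 0.158 for 9 under neither. Over all coding genes the same medians were 0.827, 0.733, 0.228 and 0.207. ACGTG or GCGTG, searched on both strands, was found in 39 of 55 member promoters (70.9%), against 50.4% of 20150 promoters from 16522 genes. Under both marks the shares were 87.1% and 68.2%, under H3K4me3 alone 61.5% and 63.5%, under H3K27ac alone 50% (1 of 2 promoters) and 31.2%, and under neither mark 33.3% and 27.8%. ACGTG alone was found in 41.8% of member promoters against 21.1%, GCGTG in 50.9% against 39.6%, and CACGTG, which contains ACGTG, in 10.9% against 8.03%. The GC box GGGCGG was found in 47.3% against 47.8%, and TATAAA in 7.27% against 12.1%. The promoters printed above were picked for contrast, and others went the other way. An unmarked Aldoc promoter held 3 stretches, against 1 in the printed Aldoa promoter, and the Tpi1 promoter under both marks held 0. Slc16a1, Pdk3 and Pdha1 promoters each held 4, as many as Pfkp, with H3K27ac at both oxygen levels. These are matches of letters and do not show that a factor was bound.

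**Figure D5:**
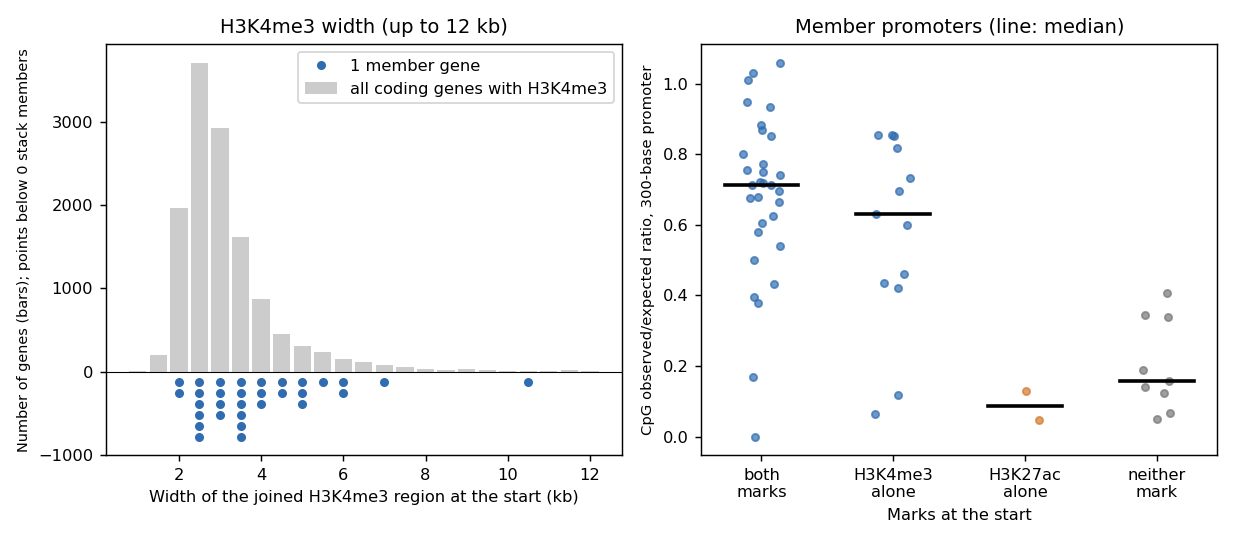
Left, widths of the joined H3K4me3 region at a start in kb, with grey bars for the number of coding genes at each width and 1 blue point per member gene stacked below 0. Members range from 2 to 10.5 kb. Right, observed to expected CpG ratio of the 55 member promoters by the marks at their start, with 1 point per promoter and a line at the median, 0.714 under both marks and 0.158 under neither.

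A fixed list of 53 other glucose genes was read in the same way. Of these, 23 carried both marks (43.4%, against 36.5% of all coding genes), 13 H3K4me3 alone (24.5%, against 22.4%), 0 H3K27ac alone (against 1.15%) and 17 neither (32.1%, against 39.9%). Both marks were found in the pentose phosphate branch (5 of 7 genes), the remainder of the pyruvate dehydrogenase complex (5 of 7) and glycogen metabolism (5 of 9). They were found at 4 of 5 other genes of monocarboxylate transport. These were Slc16a7, whose H3K27ac was called in hypoxia alone, Bsg (basigin, the chaperone of MCT1 and MCT4), and the mitochondrial pyruvate carrier genes Mpc1 and Mpc2. In gluconeogenesis 2 of 7 carried both, among other glucose transporters 1 of 8 and among other kinases and isozymes 1 of 10. Hypoxia-only H3K27ac was found at 2 of the 53 (3.77%, near the 2.98% of all coding genes), each over a start with H3K4me3: the transporter Slc2a12 (chr10:22644501-22646000, score 54) and Slc16a7 (chr10:125388001-125390000, score 60), which encodes MCT2. Normoxia-only H3K27ac was found at 0 of the 53, against 0.816%.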

How the data were processed

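According to the study's methods and the submitters' processing notes, the authors used bowtie2 for mapping ChIP-seq reads to mm10, Picard for duplicate removal, and chromstaR, run in its differential mode, for peaks. The authors deposited 4 peak lists, each holding positions and a score per peak, called on both libraries of a group together. The differential mode compared the oxygen levels, so the hypoxia and normoxia lists of a mark are not separate, independent calls. Software versions are not given in the sources used here. The inputs have no list of their own. No column belonged to samples of another series, and no depth or interval could be computed.

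Each gene was read over its body and 5000 bp on each side in GENCODE M21 (any shared base), by symbol and chromosome. All 116 listed symbols matched. Red cell markers were read as well and are not reported here. A start was a coding transcript start of the basic annotation, with a window of 1000 bp. A peak was condition-specific if no peak of that mark at the other oxygen level overlapped it by any base. Adjoining segments were joined for widths. Promoter sequences were RefSeq's (GRCm38.p6), and overlapping motif matches counted as 1 stretch. Coordinates are 1-based.

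Every listed gene is accounted for. Positions and scores were given for genes with a condition-specific peak or without H3K4me3 at a start, and for the widest and narrowest of each step. The other genes of the pathway were named where they held a condition-specific peak, and Bsg, Mpc1 and Mpc2 were named after their values were seen. Members and lists were chosen with earlier results of these data known. With 1 list per condition no test was made. Overlap code was tested on simulated data. Alternatives changed the start window, flank, score minimum, overlap and background. Python 3.11.15, pandas 2.3.3, numpy 2.4.6 and matplotlib 3.10.9 were used.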

Additional observations from a re-analysis of the deposited data

How the results depend on the processing

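The number of the 37 genes with condition-specific H3K27ac was 3, against 3.77% of all coding genes. Each count below is followed by the share of all coding genes under the same setting. It was 1 (Pfkp, against 1.96%) when peaks with one of the opposite oxygen list at most 1000 bp away were dropped. The segments of Slc16a3 and Aldoa touch shared peaks. It was 2 (Slc16a3 and Aldoa, against 0.774%) when the counted list lost its lowest-scoring 25%. With a flank of 20000 bp it was 4 (against 5.77%), which added a segment near Pgam2 (chr11:5819001-5836500, score 56, 15268 bp from the gene). Without the lowest-scoring 25% of every list the count was 3 (against 5.89%). Pkm then replaced Pfkp, the upstream peak of Pkm being left in the normoxia list alone. The background for either direction rose from 3.77% to 5.83% among genes with H3K4me3 at a start. Genes with H3K4me3 at a start numbered 29 (against 58.4%) when the start itself had to lie in the peak, which removed Eno3 and Pfkfb1. They numbered 27 (against 48.9%) without the lowest-scoring peaks. With comprehensive annotation, an alternative chosen after seeing the data, they numbered 32 (against 59.3%). In all, 29 alternative values of the main results stayed within 1.5 times the reported value and 1 did not. No paired analysis was possible because each list pools both libraries of its group, and for the same reason no library could be left out.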
